A study of Macaca mulatta with 9 samples.

Results

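The fat-cell genes described here are FABP4, CIDEA, THRSP, CFD, GPD1, ADIPOQ, PLIN1, LEP, LPL and PPARG, and every probe set that carries one of these symbols was included. They make up 18 of the 52766 probe sets analysed and belong to 9 of the 10 genes, because PLIN1, the main coat protein of the fat-cell lipid droplet, was the symbol of none. The genes were chosen by their intensities on these same arrays: several were picked because they stood out in part of the old ovaries. Differences between old ovaries and the younger groups are therefore given for them as a description, without a test. The comparison of middle-aged with young ovaries was not used in the choice and was tested, although its error estimate also drew on the old arrays.

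By the labels, the arrays were one-colour Affymetrix arrays of ovary RNA from 9 rhesus monkeys (Macaca mulatta), 1 array per monkey. Each age group held 3 monkeys: young animals aged 3 to 4 years, which were cycling and not yet used for breeding, fertile middle-aged animals aged 7 to 8 years, and old animals aged 18 to 19 years, which were no longer fertile. No genotype or drug treatment set the groups apart in the labels, and all 9 animals were anaesthetized and perfused with cold buffer before the ovaries were frozen. Young and middle-aged ovaries were taken at about proestrus, and each array holds RNA of a part of 1 ovary, so that 1 array stands for 1 piece of tissue. In such bulk tissue, more cells of a type and more RNA per cell cannot be told apart.

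Fat cells store triglyceride in lipid droplets and release it as fatty acids when energy is needed. Lipoprotein lipase frees fatty acids from circulating lipoproteins, fatty acid binding proteins carry them inside the cell, glycerol phosphate and fatty acids are joined into triglyceride, and droplet proteins control how it is kept. Fat cells also secrete hormones such as leptin and adiponectin, and PPARG is the nuclear receptor that drives their formation. Fat cells are not among the main cell types of the ovary.

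Intensities are the deposited linear values, which the labels describe as made by robust multi-array averaging (RMA), and they carry no detection call. Where a gene has several probe sets, they are called brighter or dimmer by their mean log2 intensity over the 9 arrays. The median probe set lay between 24.2 and 25.8 on each array and the first quartile between 9.0 and 9.57, so a value near 10 lies close to the first quartile. ACTB, the cytoskeletal actin, ranged from 8443 to 10972. The ovarian genes STAR, which brings cholesterol to the steroid enzymes, and ZP3, an egg coat protein, were both bright, with STAR at 646 to 21679 on all arrays and ZP3 at 377 to 2835 in the younger ovaries against 46.3 to 52.4 in the old ones. Old 1 had the lowest median correlation with the other arrays (Pearson's r of log2 values across probe sets, 0.957), followed by old 3 (0.965), whereas the other arrays lay between 0.975 and 0.983.

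The probe sets fell into a group in which a single monkey stood apart and a group in which it did not. In 12 of the 18, from 8 genes, old 3 was at least 2-fold brighter than every other array, by 3.02-fold for GPD1 to 52.5-fold for FABP4. The share of all probe sets with old 3 so far above the rest was 0.442%. No member stood so far above the rest on any other array, for which the shares of all probe sets were 0.0815% for young 1, 0.15% for young 2, 0.489% for young 3, 0.0265% for middle-aged 1, 0.0493% for middle-aged 2, 0.0853% for middle-aged 3, 1.87% for old 1 and 0.21% for old 2. Since the genes were picked for standing out in part of the old ovaries, the count for old 3 describes that choice and carries no test. The 2-fold limit was set after the values were seen.

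**Figure D1:**
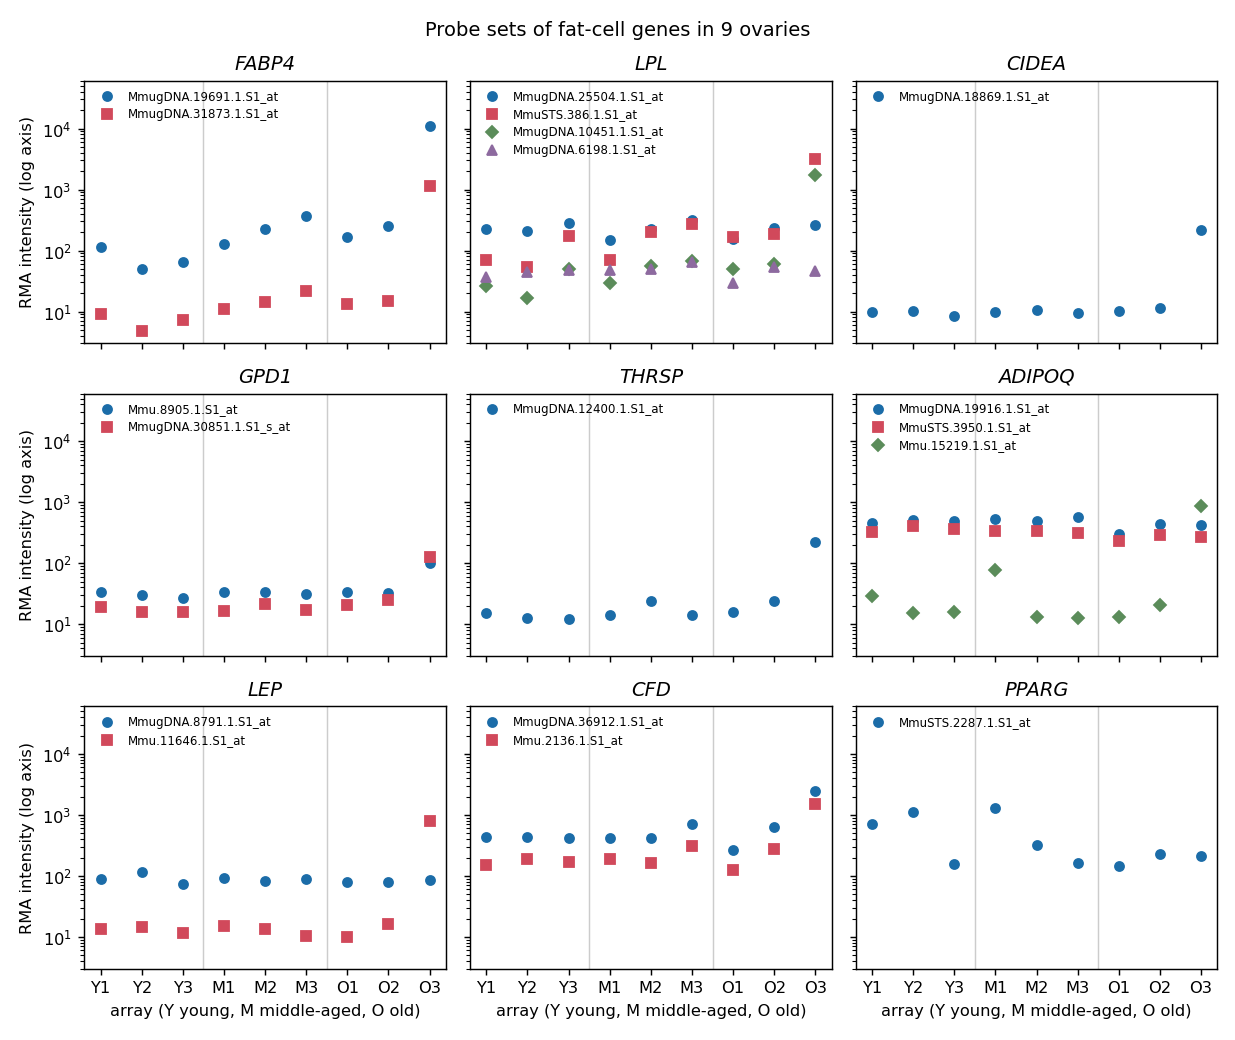
Intensity (linear units, log axis) of the 18 probe sets of the fat-cell genes on each of the 9 arrays, with a panel per gene, a symbol per probe set and grey lines between the age groups. Old 3 stands alone above the other 8 arrays in 12 probe sets, while PPARG, 2 of the 4 LPL probe sets, 2 of the 3 ADIPOQ probe sets and the brighter LEP probe set do not show it.

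Fatty acid uptake and transport gave the largest values. FABP4 (Entrez 701365), the fatty acid binding protein of fat cells, read 116, 49.4 and 65.9 in the young, 129, 226 and 364 in the middle-aged and 165, 255 and 11079 in the old ovaries with its brighter probe set. Old 3 was 30.5-fold above middle-aged 3, the next array, whereas old 1 and old 2 lay within the range of the middle-aged ovaries. All 3 middle-aged values exceeded all 3 young values. The group means were 76.9 ± 34.4 (SD, n = 3) in young, 240 ± 118 in middle-aged and 3833 ± 6275 in old ovaries, and the SD of the old group exceeded its mean. The dimmer FABP4 probe set had the same order of groups, at 4.79 to 9.18 in the young and 11.0 to 21.4 in the middle-aged ovaries, with old 1 at 13.2, old 2 at 14.6 and old 3 at 1125.

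LPL (Entrez 712887), the lipase held on capillary walls, was measured by 4 probe sets that did not read alike. In MmuSTS.386.1.S1_at, the brighter of a pair with the old 3 pattern, the young ovaries read 69.3, 54.4 and 175, the middle-aged 69.1, 203 and 276 and the old 168, 183 and 3108. In MmugDNA.10451.1.S1_at, the dimmer of that pair, the young ovaries read 26.1, 16.5 and 49.3, the middle-aged 29.0, 55.9 and 67.5 and the old 50.7, 59.8 and 1715. Old 3 was thus 11.2-fold and 25.4-fold above the next array, and old 1 and old 2 lay within the range of the middle-aged ovaries in both. They overlapped with the young ovaries in the brighter of the pair and lay above all 3 of them in the dimmer. The brightest LPL probe set, MmugDNA.25504.1.S1_at, ran from 146 in middle-aged 1 to 321 in middle-aged 3 with old 3 at 259, and the last, MmugDNA.6198.1.S1_at, from 29.5 in old 1 to 63.9 in middle-aged 3 with old 3 at 46.2. In both of these, old 3 lay inside the range of the younger ovaries.

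Among the members, the droplet and synthesis proteins CIDEA, THRSP and GPD1 showed the old 3 pattern with every probe set. Other genes of these roles, described further below, did not all share it. CIDEA (Entrez 703318), a droplet protein known from brown fat, read 9.79, 10.3 and 8.35 in the young, 9.94, 10.4 and 9.57 in the middle-aged and 10.4, 11.3 and 214 in the old ovaries. The first 8 values all lay near the first quartile of the arrays, and old 3 was 19-fold above the next. THRSP (Entrez 699701), a nuclear protein tied to fatty acid synthesis, read 15.1, 12.4 and 12.3 in the young, 14.2, 24.4 and 14.3 in the middle-aged and 15.9, 23.6 and 226 in the old ovaries. Old 3 was 9.27-fold above middle-aged 2, and the other old ovaries lay within the middle-aged range.

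GPD1 (Entrez 713384) makes the glycerol phosphate on which triglyceride is built. Its brighter probe set read 33.1, 30.7 and 27.3 in the young, 33.7, 33.7 and 31.7 in the middle-aged and 33.7, 32.8 and 102 in the old ovaries. Its dimmer probe set stayed at 15.9 to 21.0 in the younger ovaries, with 20.4, 24.9 and 124 in the old. Old 3 was 3.02-fold and 4.99-fold above the next array, and both excesses were among the 4 smallest of the 12 probe sets.

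Among the secreted proteins, CFD (Entrez 721138), the complement protease also called adipsin, was bright on every array. Its brighter probe set read 441, 434 and 420 in the young, 414, 423 and 697 in the middle-aged and 266, 637 and 2445 in the old ovaries. Old 3 was 3.51-fold above middle-aged 3, and old 1 was the lowest of the 9. The other CFD probe set ranged from 153 to 193 in the young and from 162 to 303 in the middle-aged ovaries, with 126, 279 and 1482 in the old, so that old 1 was again lowest and old 3 highest.

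ADIPOQ (Entrez 574212), which encodes adiponectin, had 1 probe set with the old 3 pattern and 2 without it. The dimmest read 28.5, 15.1 and 15.7 in the young, 77.7, 13.1 and 12.5 in the middle-aged and 12.9, 20.3 and 877 in the old ovaries, so that old 3 was 11.3-fold above middle-aged 1. The brightest read 456, 511 and 494 in the young, 522, 500 and 561 in the middle-aged and 297, 435 and 422 in the old ovaries. In that probe set, all 3 old values lay below all 6 younger values. The last ADIPOQ probe set gave the same separation, at 314 to 407 in the younger ovaries and 232, 293 and 267 in the old ones. The share of all probe sets that separate in this way was not computed, so no effect of age is read from these values.

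LEP (Entrez 698728), which encodes leptin, was split likewise. Its dimmer probe set read 13.5, 14.3 and 11.6 in the young, 14.8, 13.3 and 10.4 in the middle-aged and 9.97, 16.3 and 794 in the old ovaries. Its brighter probe set stayed between 73.5 and 116 on all 9 arrays, with old 3 at 84.2. The excess of old 3 was 48.8-fold in the one and absent in the other. For ADIPOQ, LEP and LPL, then, the brightest probe set by mean log2 was one in which old 3 did not stand out. By mean linear intensity, in which old 3 weighs more, MmuSTS.386.1.S1_at led for LPL (478 against 228) and the probe set with the old 3 pattern led for LEP (99.8 against 87.0). Which part of the transcript each probe set reads was not examined here.

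PPARG (Entrez 574190), the receptor that directs fat-cell formation, had 1 probe set and another pattern. It read 717, 1109 and 156 in the young, 1279, 324 and 165 in the middle-aged and 147, 229 and 208 in the old ovaries. Young 1, young 2 and middle-aged 1 were the highest, the old values overlapped with those of young 3 and middle-aged 3, and old 3 lay between the other old ovaries. PPARG is also made by granulosa cells of the follicle. HSD17B1, a granulosa enzyme that makes oestradiol, was highest on the same 3 arrays, at 1372, 3972 and 2434 against 127 to 504 on the others. AMH, the granulosa hormone of small follicles, read 625, 3292 and 1218 on these 3 arrays and 56.4 to 952 on the others. The other measured granulosa markers ran differently: the inhibin subunits INHA and INHBA and the aromatase CYP19A1 were all highest in old 1, at 6350, 2343 and 1389, where PPARG was lowest. The 5 measured of 7 listed granulosa markers (FSHR and FOXL2 had no probe set) summed to 1125 to 8059 in young, 766 to 4686 in middle-aged and 1263 to 10265 in old ovaries, and their part in the PPARG values was not tested.

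Differences between group means repeated this split. Over the 12 probe sets with the old 3 pattern, the log2 difference old minus young ran from 0.67 to 3.43, and without old 3 from -0.22 to 1.51. The log2 difference old minus middle-aged ran from 0.55 to 1.99 with old 3 and from -0.53 to 0.32 without it. For the brighter FABP4 probe set, old minus young was 3.43 (SE 1.39) with old 3 and 1.51 without, and old minus middle-aged was 1.82 (SE 1.39) and -0.10. For CIDEA, old minus young was 1.63 (SE 1.00) and 0.20. For PPARG, in which old 3 was not apart, old minus young was -1.38 (SE 0.86) with old 3 and -1.44 without.

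**Figure D2:**
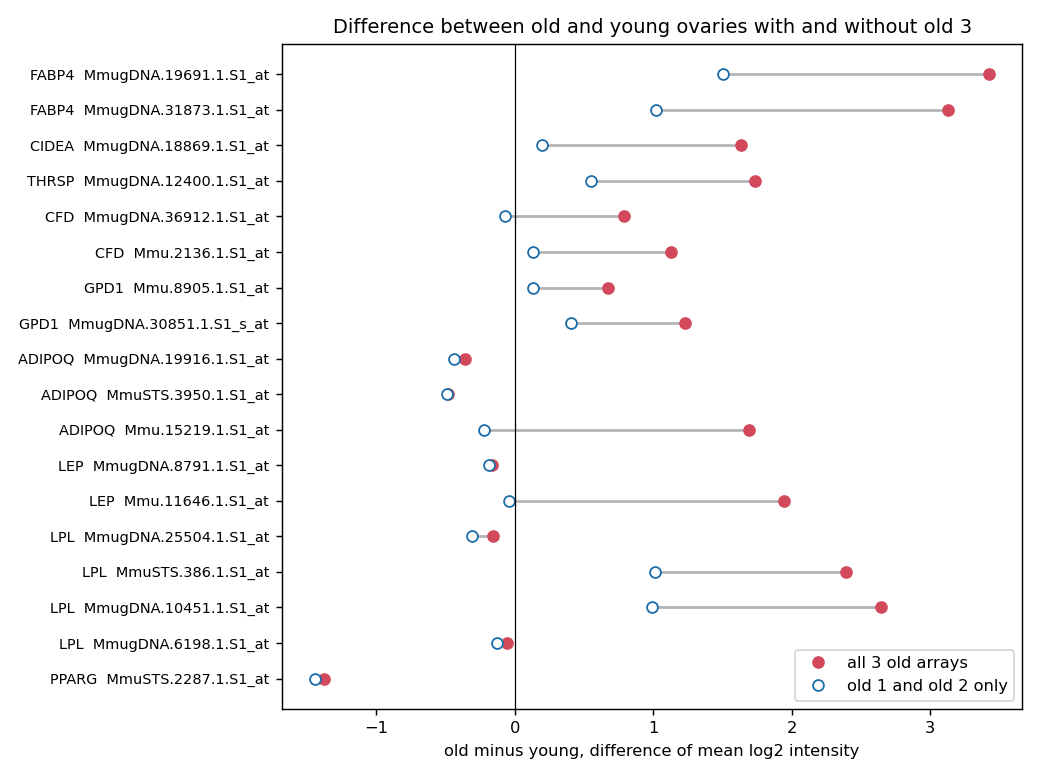
Log2 difference of old minus young group means for each of the 18 probe sets, with all 3 old ovaries (filled points) and without old 3 (open points). For FABP4 and both LPL probe sets with the old 3 pattern the value without old 3 stays near 1 or above, for PPARG it stays near -1.4, and for most others it lies near 0.

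The median log2 difference over the 18 probe sets was 1.18 for old minus young, with 12 above 0 and 6 below, beside 0.01 over all probe sets. Without old 3 the median was 0.05. For old minus middle-aged the median was 0.98, again with 12 above 0, beside 0.02 over all probe sets, and without old 3 it was -0.13. Across all probe sets, 0.155% were called in old versus young and 0.0341% in old versus middle-aged ovaries, where called means a Benjamini-Hochberg adjusted p under 0.05 in limma and a difference of at least 1.5-fold. No call is read for the members in these contrasts, which entered their choice.

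Middle-aged and young ovaries were compared by limma. None of the 18 probe sets was called, and none had an unadjusted p under 0.05, against 0.0019% and 3.18% of all probe sets. The log2 differences middle-aged minus young ran from -0.28 for PPARG to 1.61 for the brighter FABP4 probe set, with unadjusted p from 0.246 to 0.975 and an adjusted p of 1 throughout in limma. The median was 0.16, with 13 above 0 and 5 below, beside -0.01 over all probe sets. Both FABP4 probe sets had all middle-aged values above all young ones, with log2 differences of 1.61 (SE 1.39) and 1.14 (SE 1.49). These were the 2 of 18 members without overlap between the groups, and the groups did not overlap in 8.78% of all probe sets. The SE is pooled over all 3 age groups and so holds the spread that old 3 adds. That made a call harder to reach for the probe sets with the old 3 pattern, so the absence of calls says little about them. Fitting only the groups compared also called none. With 3 arrays a group, an exact two-sided permutation test of a single probe set cannot give a p below 0.1.

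Other genes of fat cells were taken from 6 lists of 73 genes, of which 56 had a probe set, each represented by its brightest. In limma none was called in any of the 3 comparisons. An unadjusted p under 0.05 was given by 15 of the 56 (26.8%) in old versus young, 17 (30.4%) in old versus middle-aged and 1 in middle-aged versus young ovaries, where 13.5%, 7.87% and 3.18% of all probe sets passed it. All probe sets include dim ones and those without a symbol, so these shares are not like for like. The median log2 difference old minus young was 0.44, with 42 above 0 and 14 below, and 0.24 without old 3. The median old minus middle-aged was 0.45, with 44 above 0 and 12 below, and 0.16 without old 3. ACSL1, which activates fatty acids for triglyceride synthesis, had the smallest p of these genes, with a log2 difference old minus young of 2.19 (SE 0.36, limma adjusted p = 0.0763).

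Old 3 was at least 2-fold above every other array in 6 of these 56 genes (10.7%, chosen by this measure after the values were seen). DGAT2, which adds the last fatty acid to triglyceride, read 568 in old 3 and at most 59.6 elsewhere. RBP4, the retinol carrier that fat cells secrete, read 1410 and at most 228, and CD36, a fatty acid transporter, 171 and at most 57.1. The others were EBF2, a transcription factor of fat-cell precursors, at 2.55-fold, and the glycerolipid enzymes AGPAT2 and GPAM at 2.22-fold and 2.19-fold above the next array. Old 1 stood as far above the rest in 6 other genes of the lists (10.7%). Over all probe sets the shares differed, at 0.442% for old 3 and 1.87% for old 1. The genes of old 1 included ANGPTL4, an inhibitor of LPL, at 3784 against at most 401, DGAT1 at 1132 against at most 196, and ABHD5, a lipase cofactor, at 251 against at most 54.5. Old 2 stood so far above the rest in FABP3, the fatty acid binding protein of muscle, alone (0.21% of all probe sets). No young or middle-aged array did in any. The ovary with the high FABP4, CIDEA and LEP values and the ovary with high ANGPTL4 and DGAT1 were thus different animals.

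**Figure D3:**
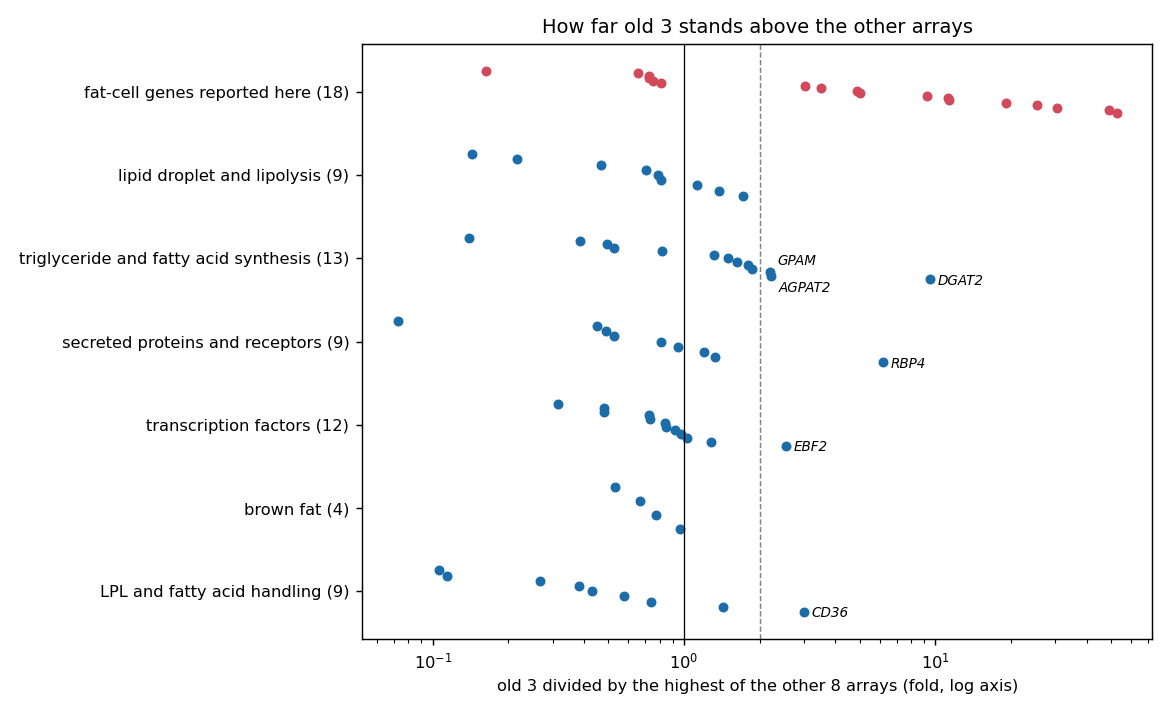
Intensity of old 3 divided by the highest of the other 8 arrays (fold, log axis) for the 18 probe sets of the fat-cell genes and for the brightest probe set of each of the 56 other fat-cell genes. Points right of the dashed line are at least 2-fold above every other array, which holds for 12 of the 18 and for 6 of the 56. Over all probe sets the share is 0.442%.

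By role, the 13 measured genes of triglyceride and fatty acid synthesis were those with every log2 difference old minus young above 0, with a median of 0.80 and 0.58 without old 3. Without old 3 the direction was not uniform, as DGAT2 was at -0.39 and PCK1 at -0.64. Their leading members were ACSL1, GPAM at 1.35 (limma adjusted p = 0.254, and 0.79 without old 3) and ELOVL6, a fatty acid elongase, at 1.08 (0.435). ELOVL6 was highest in old 1, at 1521, with old 3 at 589. In old 2 it read 263, within the range of 193 to 354 of the younger ovaries. The 9 genes of droplets and lipolysis had a median of 0.16. MGLL, which cleaves monoglycerides, was at 1.63 (limma adjusted p = 0.257), and ADRB3, the adrenergic receptor that triggers lipolysis, at -1.78 (0.114). The study, by SAM, listed ADRB3 among the genes lower in old than in young ovaries. CAV1 and PDE3B were at 0.61 and 0.52, and at 0.18 and 0.05 without old 3, while PNPLA2, the first lipase of the pathway, was at -0.80 and -0.76.

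The 9 secreted proteins and receptors had a median of 0.31, and 0.20 without old 3. RBP4 was at 1.94 with old 3 and 0.07 without, NPR1, a natriuretic peptide receptor, at 1.07 and 0.66, C1QTNF1 at 1.01 and 1.17, and LEPR, the leptin receptor, at -1.34 and -0.75. The 12 transcription factors had a median of 0.27, with EBF2 at 1.30 (0.35 without old 3), CEBPB at 1.17, CEBPA at 1.16, KLF15 at -0.72 and NR1H3 at -0.31 (-0.71 without old 3). Among the 9 genes of LPL control and fatty acid handling, with a median of 0.24 and 0.44 without old 3, ANGPTL4 was at 1.67, FABP3 at 1.41 (2.27 without old 3), APOE at 1.20, VLDLR at -0.93 and CD36 at -0.04 (-0.88 without old 3). The 4 measured genes of brown fat had a median of -0.04. UCP1, the uncoupling protein that defines brown fat, read 5.10 to 7.49 on all arrays, below their first quartile. It had 1 probe set, with no high value on any array to show that it responds. A part of brown fat in the CIDEA value of old 3 was not tested. None of these genes was called by limma.

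Markers of other cell types were read beside the members on each array, as medians of log2 values centred on the 9-array mean. For the members the median was 2.53 in old 3 and between -0.485 and 0.0947 on the other arrays. It was taken over all 18 probe sets, so that a gene with several counts more than once. Each other list took the brightest probe set of a gene, so these medians are not like for like. The brightest probe sets of ADIPOQ, LEP, LPL and PPARG did not stand out in old 3, which lowers the member median on that basis. For other fat-cell genes, old 3 was at 1.18 for triglyceride and fatty acid synthesis and 0.452 for transcription factors. Secreted proteins and receptors were at 0.205 in old 3 and 0.27 in old 1, and LPL and fatty acid handling at 0.0561 and 0.497. Brown fat was at 0.0293 and droplets and lipolysis at -0.0876 in old 3. Old 3 was also highest for endothelial markers at 1.36, for smooth muscle and pericyte markers at 1.48 and for blood cell markers at 0.70. In old 1 the endothelial median was 0.95 and the median of the members -0.485, their lowest. In middle-aged 3 the smooth muscle and pericyte median was 0.96 and that of the members 0.0947, their second highest. PECAM1, an endothelial adhesion protein, read 3012 in old 1 and 3047 in old 3, against 354 to 1410 on the other arrays. VWF, another endothelial marker, read 2150 in old 1 and 4502 in old 3, with middle-aged 3 at 2321. EMCN, TEK and CLDN5 were also higher in old 3 than in old 1, and ROBO4 was nearly equal. CDH5, TIE1 and KDR were higher in old 1, with CDH5 at 1151 against 651 in old 3.

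The 9 measured of 10 endothelial markers summed to 2016 to 2725 in young, 2612 to 5566 in middle-aged and 2569 to 10769 in old ovaries. The 4 of 7 smooth muscle and pericyte markers summed to 4357 to 5462, 6729 to 13543 and 5983 to 19216, and the 4 of 6 blood cell markers to 550 to 735, 993 to 1761 and 1199 to 3107. Macrophage markers, of which 9 of 10 were measured, were at 0.21 in old 3 and 0.48 in old 1 and summed to 1700 to 2615, 1468 to 3094 and 2119 to 3183. Stromal markers were at 0.19 and mesothelial and surface epithelial markers at 0.04 in old 3. The intensities have no 0, as the lowest value on any array was between 3.14 and 3.51. The part of these cell types in the values of the fat-cell genes was not tested.

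**Figure D4:**
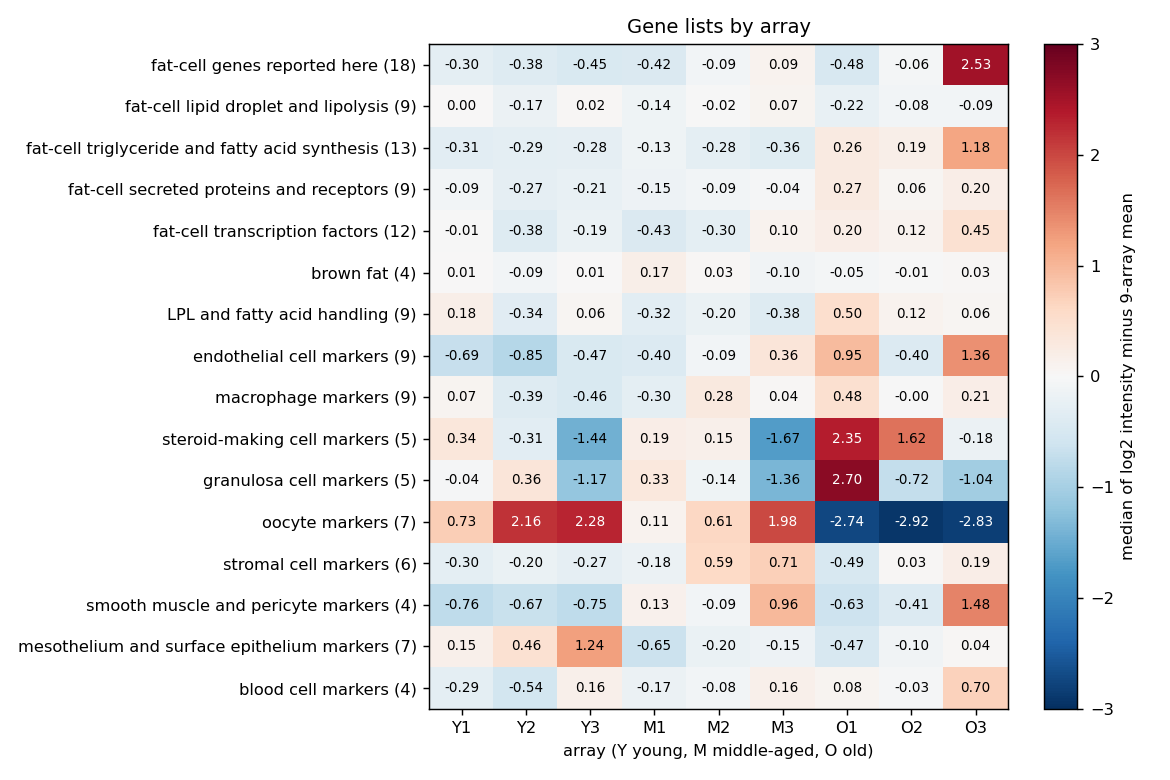
Median centred log2 value of the fat-cell genes reported here, of each list of other fat-cell genes and of each marker list on each of the 9 arrays. The fat-cell genes reported here, taken over all 18 probe sets, reach 2.53 in old 3 alone. Each other list takes the brightest probe set of a gene, so the medians are not like for like. The lists of other fat-cell genes run from -0.0876 to 1.18 in that array. Endothelial markers are high in old 1 and old 3, and steroid-making and granulosa markers are highest in old 1.

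Among all 52766 probe sets ranked by the excess of old 3 over the next array, members held 5 of the first 10, 8 of the first 20 and 10 of the first 40 places, as a description of how they were chosen. FABP4 was at ranks 2 and 4, LEP at 3, LPL at 6 and 12, CIDEA at 7, ADIPOQ at 11 and THRSP at 14. First was a probe set without a symbol, 56.5-fold above the next array, and 15 of the first 40 carried none.

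The named genes whose values were most like those of 3 members (FABP4, CIDEA and THRSP, the most variable when each gene is taken by its brightest probe set) were found by the root mean square difference of centred log2 values over the 9 arrays, where a smaller value means closer and a gene enters with its nearest probe set. Nearest to CIDEA were ACKR1, a chemokine receptor of small veins, at 0.27, DGAT2 at 0.41, KIF5C at 0.46, FGFBP1 at 0.50 and EBF2 at 0.59. Nearest to THRSP were ACKR1 at 0.38, FGFBP1 at 0.43, KIF5C and DGAT2 at 0.47 each and S100B at 0.52. Nearest to FABP4, at larger distances, were RBP4 at 0.97, ACKR1 at 1.04, LOC701504 at 1.06, EBF2 at 1.08 and MFAP5 at 1.10. ACKR1 read 33.2 to 55.8 on 8 arrays and 766 in old 3. As the 3 members peak in old 3, a search for genes like them returns genes that peak there, so that peak is no separate result.

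**Figure D5:**
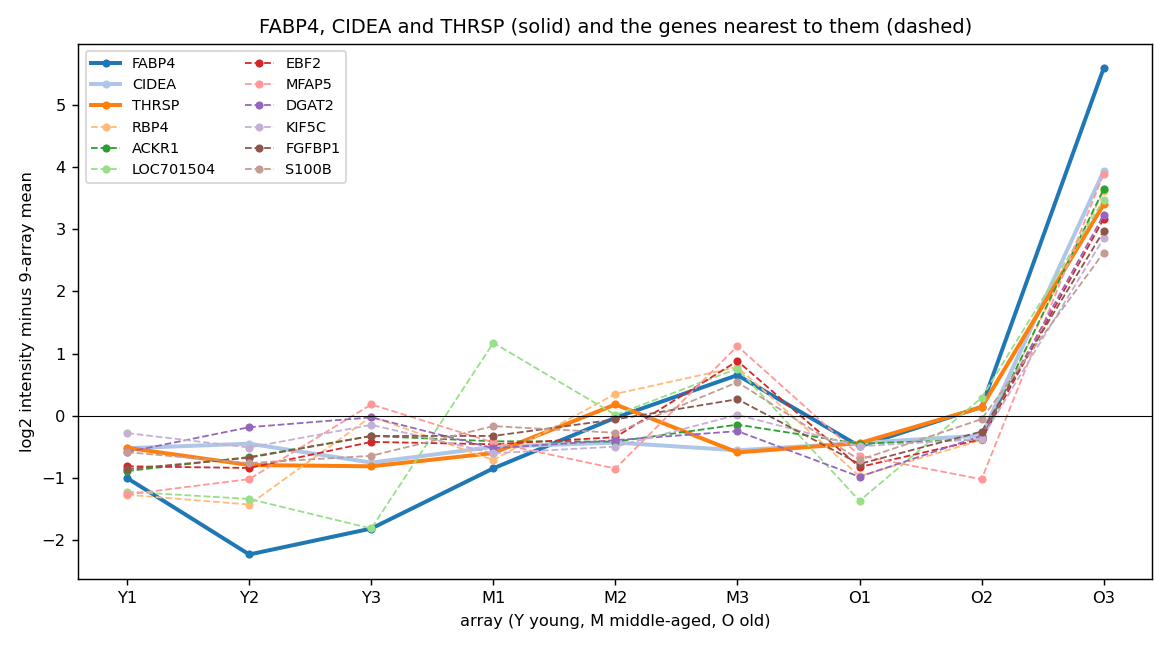
Centred log2 values over the 9 arrays of FABP4, CIDEA and THRSP and of the 5 named genes nearest to each by root mean square difference. All of them peak in old 3, which follows from the search for genes like these 3 members. Of the pairs listed CIDEA and ACKR1 lie closest, at 0.27.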

How the data were processed

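RNA of 9 ovaries was hybridised to 9 Affymetrix arrays. The authors deposited linear intensities, 1 per probe set and array, which they made by RMA per the labels (version not given in the sources used here). The study's methods describe instead a LOWESS route with dye reversal, and which steps applied to the deposited table is not settled. Probe sets were named from the platform annotation: of 52766 non-control probe sets, 24956 carried 1 symbol, 361 several and 27449 none, and 99 control probe sets were left out. Values were put on the log2 scale and fitted with limma 3.58.1 in R 4.3.3, with 1 mean per age group over all 9 arrays. The study used SAM with a minimum of 1.5-fold, and limma stands in for it because no SAM tool was at hand. The script was checked on simulated data. Alternatives covered normalization, filtering, variance model, replicate block and each array left out. Of other fat-cell genes, those called, and per list up to 3 with the highest and 2 with the lowest old minus young difference, were named, beside genes named for their excess in 1 array. The members and lists were chosen with earlier results of these data known. The number of arrays, the floor of the dimmest signals and disagreement among probe sets of a gene limit the precision.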

Additional observations from a re-analysis of the deposited data

How the results depend on the processing

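None of the 18 probe sets of the fat-cell genes was called in middle-aged versus young ovaries under any alternative run. Leaving out 1 array at a time, the median log2 difference over them ran from 0.0477 (without old 3) to 1.81 (without old 1) for old minus young and from -0.128 (without old 3) to 1.61 (without old 1) for old minus middle-aged. With the brightest probe set of each gene the median was 0.67 for old minus young and 0.55 for old minus middle-aged, the values of GPD1. These shifts, and the shifts with centring, quantile normalization or array weights, were smaller than the pooled within-group SD of the member median, 0.787. That SD includes old 3, which widens it, so staying within it is a loose limit. As log2 ratios of mean intensities, old over young was 5.64 and 5.76 for FABP4, 3.94 for the dimmest ADIPOQ and 4.38 for the dimmer LEP probe set, and old over middle-aged was 4.00 and 4.62 for FABP4 and 4.41 for LEP. Of the other fat-cell genes, 1 was called in old versus young ovaries with the replicate block (ACSL1, limma adjusted p = 0.0373), and leaving out 1 array gave 0 to 1 (NPR1 without old 2, log2 difference 1.69, limma adjusted p = 0.0429). Counts of all probe sets called in old versus young ovaries were 82, 229 with the replicate block, 27 with those groups fitted alone and 4 (without young 2) to 198 (without old 2) with 1 array left out. In old versus middle-aged ovaries they were 18, 28 with the block, 9 with a common median set for every array, 5 with the groups alone and 1 (without middle-aged 3) to 42 (without old 3), and in middle-aged versus young ovaries 1, and 0 (without young 1, young 2, young 3 or middle-aged 3) to 1 with 1 array left out. Arrays with the same number had deviations correlated at -0.0247 to 0.41, over 0.1 in 5 of 9 pairs. Every pair of number 3 was among these, at 0.252 to 0.41. Of the 9 arrays, 5 correlated best with their own number. The labels state no pairing of monkeys by number, so the main fit used none, and what arrays of a number share was not tested. At limits of 1.5-fold and 4-fold, chosen after seeing the data, old 3 stood above every other array in 11 and 2 other fat-cell genes, old 1 in 8 and 3. Causes of these shifts were not tested, beyond the fewer arrays or groups in each fit. The dimmest values lie near the floor of the arrays, where intensities resolve little.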
